A study of Mus musculus with 3 samples.

Results

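The genes described here are 44 mouse genes of mitosis and the spindle, chosen by symbol, each with a row among the 24982 gene symbols of every library; 41 of them had at least 1 count in all 3 libraries. They cover the cyclins and kinases of mitotic entry, the kinetochore and its checkpoint, the partners of the anaphase-promoting complex, the kinesins, other spindle microtubule proteins, cytokinesis genes, and the condensins with Top2a and Mki67. RNA sequencing was done on LKS cells, Lin-Kit+Sca1+ bone marrow cells of the mouse, a fraction rich in haematopoietic stem cells and early progenitors, sorted by flow cytometry. The labels also use the term LLP cells for the same samples, which they do not explain. The CD73-/- recipient mice gave 1 library (KO) and the wild-type recipients gave 2 libraries (WT replicates 1 and 2). CD73, encoded by Nt5e, turns extracellular AMP into adenosine. No treatment, age, sex, strain background or source of the CD73 allele was named in the labels, which also leave unsaid whether donor or recipient cells were sorted, and whether each WT library was made from its own animal. The spread behind every p-value is thus that of these libraries alone and may be technical.

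A dividing cell enters mitosis when Cdk1, bound to A- and B-type cyclins, is switched on. Condensins and topoisomerase II then shape the chromosomes, kinetochores attach them to spindle microtubules, and a checkpoint holds back the anaphase-promoting complex until every chromosome is attached. Most of these genes are transcribed in G2 and M phase through the CHR promoter element, often with CCAAT boxes, so in a mixed population their RNA is known to follow the share of dividing cells. Within the LKS gate the most primitive stem cells are largely quiescent and the multipotent progenitors divide more often.

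The promoters of 37 of the 44 genes were found in the RefSeq table of build GRCm38.p6, as 40 windows that run from 250 bases before each transcript start to 50 after it. The CHR element, TTTGAA on either strand, was present in 31 of these 40 windows (77.5%), against 17.9% of all 32851 promoter windows. In the 110 bases from 60 before the start to 50 after it, it was present in 27 windows (67.5%), against 5.50% of all promoters. CCAAT on either strand was present in 30 of the 40 windows (75.0%), against 37.4% of all, and the CHR variant TTTAAA in 9 (22.5%), against 13.2%. These shares describe letters in a window, not bound sites.

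**Figure D1:**
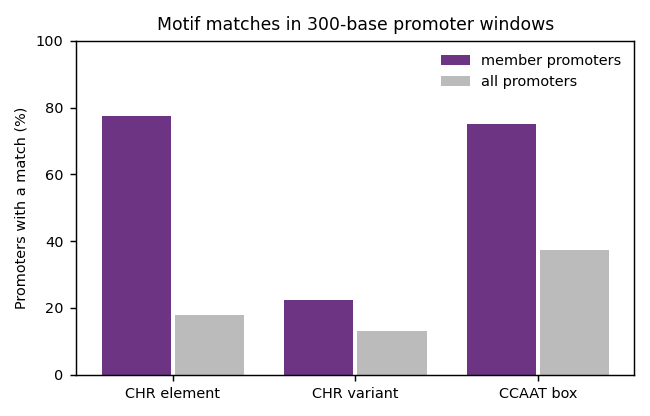
Share of 300-base promoter windows with a match on either strand (vertical axis, percent) for the 40 windows of the mitosis and spindle genes and for all 32851 windows. The CHR element was present in 77.5% of the gene windows, against 17.9% of all windows.

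The 110-base windows are printed for the 7 genes that differed most between KO and WT (unadjusted p under 0.05, given further on), so that genes high and low in KO can be read against each other. Capitals mark TTTGAA or its reverse complement TTCAAA, and CCAAT or its reverse complement ATTGG. The first 3 genes were higher in KO and the other 4 were lower. The windows lie at chr10:69352863-69352972 (minus strand), chrX:100626005-100626114 (plus), chr3:27153829-27153938 (minus), chr2:129297163-129297272 (minus), chr2:164769869-164769978 (plus), chr9:22389157-22389266 (minus) and chr11:117849177-117849286 (plus), with each sequence read 5′ to 3′ on the strand of its gene.
Cdk1: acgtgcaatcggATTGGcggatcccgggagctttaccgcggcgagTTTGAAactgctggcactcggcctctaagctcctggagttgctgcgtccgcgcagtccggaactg
Kif4: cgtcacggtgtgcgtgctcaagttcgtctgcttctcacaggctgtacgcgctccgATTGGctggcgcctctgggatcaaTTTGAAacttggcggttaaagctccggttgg
Ect2: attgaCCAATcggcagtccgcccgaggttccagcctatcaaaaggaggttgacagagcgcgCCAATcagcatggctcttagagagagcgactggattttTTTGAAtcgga
Ckap2l: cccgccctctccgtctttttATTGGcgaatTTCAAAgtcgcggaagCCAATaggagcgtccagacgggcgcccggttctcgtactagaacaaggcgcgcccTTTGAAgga
Ube2c: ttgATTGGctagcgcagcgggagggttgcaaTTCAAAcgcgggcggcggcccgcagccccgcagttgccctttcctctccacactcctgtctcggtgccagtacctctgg
Anln: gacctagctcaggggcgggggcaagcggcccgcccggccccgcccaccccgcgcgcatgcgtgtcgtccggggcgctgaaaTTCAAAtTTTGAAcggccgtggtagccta
Birc5: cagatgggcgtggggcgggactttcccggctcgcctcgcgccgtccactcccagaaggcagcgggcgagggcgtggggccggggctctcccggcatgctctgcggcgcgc
The CHR letters were thus present in this window in all 3 genes that were higher in KO, and in Ckap2l, Ube2c and Anln among the 4 that were lower. The Birc5 window held neither motif. Over the 28 genes with the CHR letters anywhere in the 300 bases, 18 had a positive log2 fold change and 10 a negative one (median 0.52). Of the 9 genes without the letters, the log2 fold change was positive in 2 and negative in 7 (median -0.76). A positive log2 fold change was found for 54.5% of the 44 genes, against 43.1% of all tested genes, whose median was -0.31. The difference between the genes with and without the CHR letters was not tested.

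The libraries were shallow, with 264704 gene-level counts in KO, against 361638 and 324954 in WT replicates 1 and 2. Nt5e had 0 counts in every library, so it gave no check of the KO label. Of the genes behind the sorting gate, Kit had 555 CPM in KO, against 517 and 637 CPM in the WT libraries. Ly6a, which encodes Sca1, had 136 CPM in KO, against 166 and 58.5 CPM in WT (36 counts, against 60 and 19). CPM (counts of a gene scaled to a common library total, from the sum of gene counts) are used throughout, and CPM values below are in the order KO, WT replicate 1, WT replicate 2. Of the lineage markers, Cd3e and Cd79a had 0 counts in every library, whereas Nkg7 of the T and NK list had 41 in KO, against 68 and 32 in WT, and Cd79b of the B lineage had 0 in KO, against 5 and 17 in WT. Across all tested genes the edgeR quasi-likelihood test called 8 genes higher and 0 lower in KO at an adjusted p of 0.05, and 282 higher and 520 lower at an unadjusted p of 0.05. DESeq2 called 18 higher and 17 lower. The median log2 fold change over these 7984 genes was -0.31.

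Mitotic genes as a whole were present at a like level in KO and WT cells, while many of them differed from library to library. The summed level of the 44 genes was 7752 CPM in KO, against 6877 and 6681 CPM in WT replicates 1 and 2, a KO value 1.14 times the WT mean of 6779 ± 139 CPM (SD, n = 2). The KO sum lay outside the WT pair, and with 1 KO library this difference has no replicate check; an exact permutation test of 1 library against 2 cannot go below p = 0.333. In sorted bulk cells, a different share of dividing cells and a different amount of mitotic RNA per cell cannot be told apart. The sum for the early granulocyte markers Mpo, Elane, Prtn3, Ctsg, Ms4a3 and Cebpe was also higher in KO, with 6094 CPM, against 3078 and 3927 CPM in WT. Mpo alone had 3748 CPM in KO, against 1913 and 2053 CPM in WT. Of the 6 markers, 4 lay above both WT libraries, while Prtn3 and Ctsg lay between them. Of all tested genes, 31.1% lay above both WT libraries and 38.2% below both. These genes mark granulocyte progenitors, and the division of such cells was not measured. Over the 8 genes of the LKS gate and stem cells, Kit among them, the sum was 1568 CPM in KO, against 2038 and 2311 CPM in WT. The sum over 8 mature neutrophil markers was 378 CPM in KO, against 824 and 1114 CPM in WT. That over 12 erythroid markers was 922 CPM in KO, against 835 and 615 CPM in WT, and 4 of the 12 lay above both WT libraries and 2 below both. Klf1, an erythroid transcription factor, had 0 counts in all 3 libraries, while Car1 had 20 counts in KO, against 0 and 0 in WT. The 5 monocyte markers summed to 586 CPM in KO, against 183 and 646 CPM in WT. Of them 3 lay above both WT libraries, 1 below both and 1 between. Ccr2 had 39 counts in KO, against 0 and 6 in WT, whereas Lyz2 had 20 in KO, against 32 and 112 in WT. Of the 5 dendritic markers, Clec9a had 27 counts in KO, against 0 and 0 in WT. Itgax had 0 counts in KO, against 4 and 0 in WT, and 3 had 0 counts in every library. The part of these markers in the mitotic values was not tested.

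None of the 44 genes passed the test: all 44 were tested and 0 had an adjusted p under 0.05, where 0.1% of all tested genes passed. Without adjustment, 7 genes (15.9%) had a p under 0.05, against 10% of all tested genes. Of these, 3 were higher (6.82%, against 3.53% of all tested genes) and 4 lower (9.09%, against 6.51%). On simulated libraries of this depth, with changes placed in better counted genes only, the test recovered fewer decreases than increases. It recovered 10% of 4-fold increases and 0.8% of 4-fold decreases, and 78% and 10% at 16-fold. The absence of calls thus does not show that the 44 genes were unchanged. DESeq2 also called 0 of the 44, with 3 higher and 5 lower at an unadjusted p under 0.05. Over all 7984 tested genes DESeq2 had 318 higher and 737 lower at that p. It gave no adjusted p for some of the 44, Nuf2, Mad2l1 and Ube2c among them, so these could not be called. The DESeq2 adjusted p of Ckap2l was 0.059. The KO value lay above both WT values for 20 genes (45.5%, against 31.1% of all tested genes), below both for 16 (36.4%, against 38.2%), and between or level with them for 8. It was thus outside the WT pair for 36 of 44 (81.8%, against 69.3%). A positive log2 fold change was found for 24 genes (54.5%, against 43.1%), and the median log2 fold change was 0.17. The difference from WT exceeded the gap within the WT pair for 26 genes (59.1%, against 50.4%). Only 22 genes reached 50 counts in some library. Of these, 4 were at least 2-fold above each WT library (18.2%, against 9.25% of all genes at that depth) and 4 at least 2-fold below each (18.2%, against 17.9%). The WT libraries themselves were at least 2-fold apart for 6 of the 22 (27.3%, against 44.6%).

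**Figure D2:**
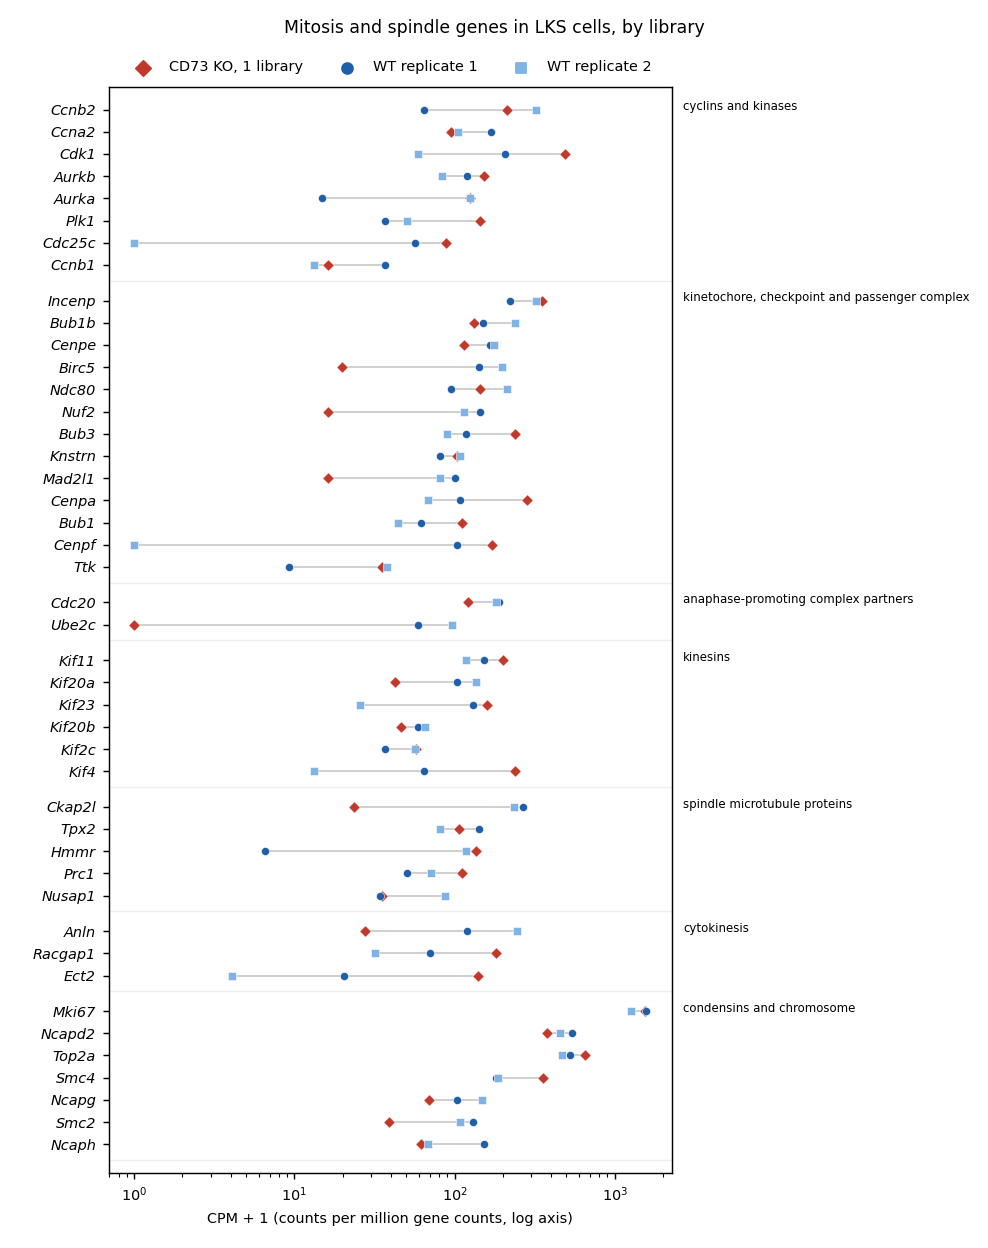
Level of each of the 44 genes in each library (horizontal axis, CPM + 1, log scale), grouped by role and ordered by the WT mean; diamonds are KO, circles WT replicate 1 and squares WT replicate 2. Mki67 sits at 1538, 1573 and 1256 CPM with no separation of KO from WT, while Ckap2l, Birc5, Nuf2 and Anln have KO far to the left and Kif4 and Cdk1 have it to the right.

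The best measured genes were Mki67 and Top2a. Mki67, the Ki-67 protein that coats mitotic chromosomes and marks cycling cells, had 1538 CPM in KO, against 1573 and 1256 CPM in WT. The KO value lay between the WT values, with a log2 fold change of 0.16 (SE 0.36, edgeR adjusted p 0.936). Top2a, the topoisomerase that untangles sister chromatids, had 654 CPM in KO, against 523 and 471 CPM in WT, above both (log2 fold change 0.43, SE 0.58, adjusted p 0.864). Per transcript length, by the authors' deposited FPKM summed over the rows of a gene, Mki67 was the highest of the 44 in WT with 141 ± 22.2 FPKM (SD, n = 2). Ccnb2 followed with 126 ± 120, Ncapd2 with 111 ± 13.0, Cdc20 with 107 ± 2.45 and Top2a with 95.8 ± 6.88 FPKM. The WT values of Mki67, 157 and 126 FPKM, did not overlap those of Ncapd2, 120 and 102 FPKM, whereas Ncapd2 overlapped Cdc20 (109 and 106 FPKM) and Ccnb2 spanned all of them (41.5 and 211 FPKM). In KO the highest were Cenpa with 207, Mki67 with 155, Ccnb2 with 139 and Top2a with 127 FPKM. Cenpa had 87.1 and 50.02 FPKM in the WT libraries.

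Among the cyclins and kinases the KO sum was 1319 CPM, against 697 and 754 CPM in WT, and 5 of 8 genes lay above both WT libraries, where 31.1% of all tested genes did. Cdk1, the kinase that drives mitotic entry, had 491 CPM in KO, against 205 and 58.5 CPM in WT (130 counts, against 74 and 19). KO was higher than each WT library, which were themselves 3.50-fold apart; the log2 fold change was 1.93 (SE 0.82, unadjusted p 0.019, edgeR adjusted p 0.350). Plk1, a kinase of spindle assembly and mitotic exit, had 144 CPM in KO, against 35.9 and 49.2 CPM in WT (log2 fold change 1.79, SE 1.41, adjusted p 0.765). Here the WT libraries were close together and KO stood apart from both. Aurkb, the kinase of the chromosomal passenger complex, had 151 CPM in KO, against 119 and 83.1 CPM in WT.

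The cyclins did not share the position of Cdk1. Ccnb1, cyclin B1, had 4 counts in KO, against 13 and 4 in WT, too few for any difference to be detectable. Ccnb2, cyclin B2, had 212 CPM in KO, against 63.6 and 323 CPM in WT, so KO lay inside the WT range. Ccna2, cyclin A2, had 94.4 CPM in KO, against 169 and 105 CPM in WT, and is overlapped on the other strand by Exosc9 (13 counts in KO, against 11 and 0 in WT). Since strand use is not given in the sources used here, counts of 2 overlapping genes cannot be separated. Aurka, the spindle pole kinase, had 33 counts in KO, against 5 and 40 in WT, and Cdc25c, the phosphatase that activates Cdk1, had 23 in KO, against 20 and 0 in WT. For both genes the WT libraries were far apart, and 1 of them alone was low.

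**Figure D3:**
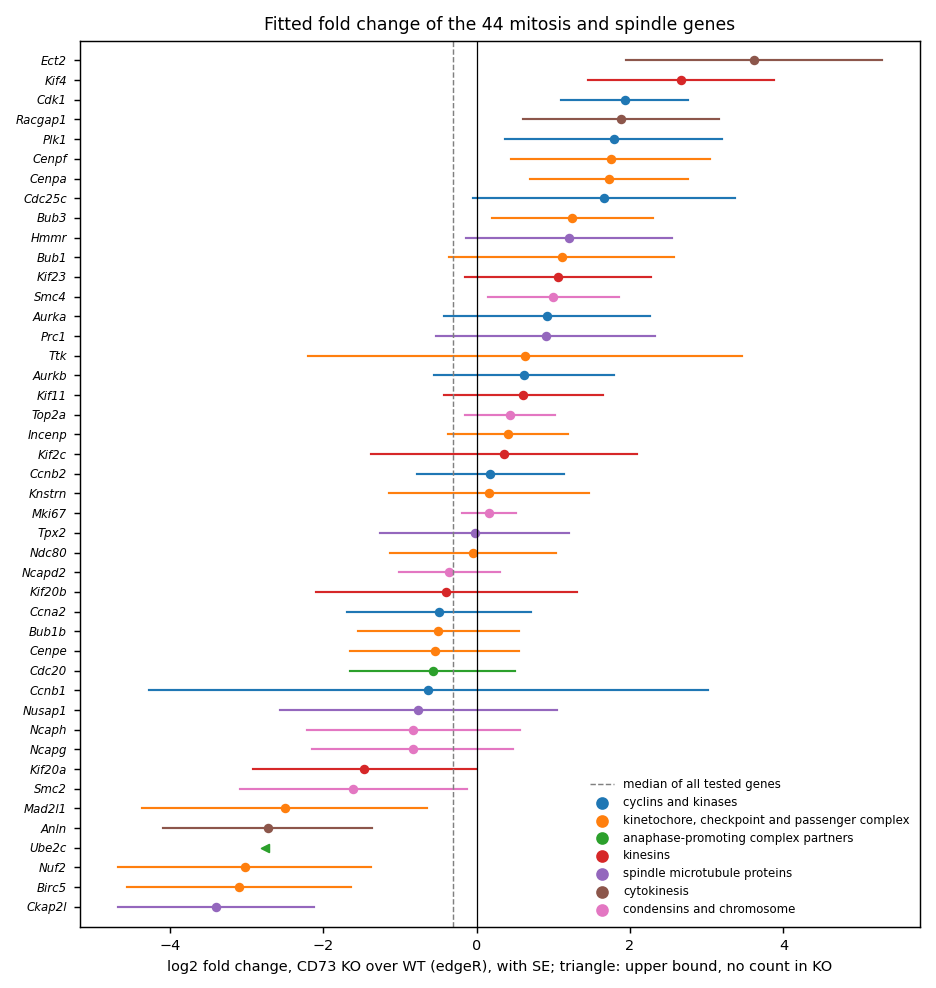
Fitted log2 fold change of KO over WT (horizontal axis) with its SE for the 44 genes, coloured by role; the dashed line is the median of all tested genes, -0.31. The SE runs from 0.36 for Mki67 to 3.65 for Ccnb1, and no gene passed the adjusted threshold. Ube2c, with no count in KO, is drawn with KO set to the floor of 3 counts.

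Kinetochore and checkpoint genes lay on both sides, with 5 of 13 above both WT libraries, 5 below both and 3 between (31.1% and 38.2% of all tested genes were above and below). Their sum was 1727 CPM in KO, against 1490 and 1683 CPM in WT. Birc5, survivin, the passenger complex subunit that brings Aurkb to the centromere, had 18.9 CPM in KO, against 141 and 197 CPM in WT (5 counts, against 51 and 64). The WT mean was 8.95 times the KO value (log2 fold change -3.09, SE 1.46, unadjusted p 0.034, adjusted p 0.438). By the authors' deposited FPKM, summed over transcripts, Birc5 had 19.7 FPKM in KO, against 45.7 and 124 FPKM in WT. This is a smaller log2 difference of -1.89 (log2 of FPKM plus 1). With the row of the highest count it was -0.82, but that row was picked in each library on its own. It can be a different transcript in each library, so -0.82 may not compare like with like. Nuf2, a microtubule-binding subunit of the Ndc80 complex, had 15.1 CPM in KO, against 144 and 114 CPM in WT, and the WT mean was 8.53 times the KO value (adjusted p 0.552). Mad2l1, the checkpoint protein that inhibits Cdc20, also had 15.1 CPM in KO, against 99.5 and 80.0 CPM in WT. For these 3 genes the gene-level WT values in CPM were within 1.5 times of each other and KO had 4 or 5 counts. For Mad2l1 the log2 difference was -2.26 with FPKM summed over transcripts. It was -0.53 with the row of the highest count, again picked in each library on its own. For Nuf2 it was -2.89 in both.

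The genes of this group that lay higher in KO were Cenpa, Bub3, Bub1, Cenpf and Incenp. Cenpa, the histone H3 variant that marks centromeres, had 283 CPM in KO, against 108 and 67.7 CPM in WT (log2 fold change 1.72, SE 1.03, adjusted p 0.617). Bub3, a checkpoint adaptor, had 238 CPM in KO, against 116 and 89.2 CPM in WT, and its partner kinase Bub1 had 110 CPM in KO, against 60.8 and 43.1 CPM in WT. Both stood above a WT pair that was within 1.5 times. Cenpf, a large protein of the outer kinetochore, had 45 counts in KO, against 37 and 0 in WT. Incenp, the passenger complex scaffold, had 351 CPM in KO, against 221 and 323 CPM in WT, near the higher WT library. Bub1b had 132 CPM in KO, against 149 and 237 CPM in WT, and Cenpe, a kinetochore kinesin, 113 CPM in KO, against 166 and 175 CPM in WT. Ndc80, Knstrn and Ttk had KO values between the WT values.

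The anaphase-promoting complex partners were both below both WT libraries, where 38.2% of all tested genes were. Ube2c, the ubiquitin-conjugating enzyme that works with the complex, had 0 counts in KO, against 21 and 31 in WT. Against a floor of 3 KO counts this is at least 6.77-fold lower (unadjusted p 0.016, edgeR adjusted p 0.321). Cdc20, the activator of the complex, had 121 CPM in KO, against 188 and 182 CPM in WT (log2 fold change -0.57, SE 1.08, adjusted p 0.920). The WT values of Cdc20 were nearly equal. Cdc20 is overlapped on the other strand by Elovl1 (9 counts in KO, against 51 and 88 in WT), and Ube2c by Tnnc2, which had 0 counts in all 3 libraries.

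Of the 6 kinesins, 4 lay above both WT libraries and 2 below both (31.1% and 38.2% of all tested genes), with a sum of 740 CPM in KO, against 542 and 409 CPM in WT. Kif4, a chromokinesin that binds chromosome arms and shortens the central spindle, had 238 CPM in KO, against 63.6 and 12.3 CPM in WT (63 counts, against 23 and 4). The KO value was 6.27 times the WT mean, and the WT libraries were 5.17-fold apart (log2 fold change 2.66, SE 1.21, unadjusted p 0.028, adjusted p 0.416). Pdzd11, which overlaps Kif4 on the other strand, had 27 counts in KO, against 5 and 10 in WT. Kif11, the motor that pushes spindle poles apart, had 200.2 CPM in KO, against 152 and 117 CPM in WT. Kif20a, a motor of the central spindle, had 41.6 CPM in KO, against 102 and 135 CPM in WT, and its opposite-strand neighbour Cdc23 had 1 count in KO, against 23 and 6 in WT. Kif20b had 12 counts in KO, against 21 and 21 in WT, and Kif2c, a microtubule depolymerase, 15 in KO, against 13 and 18 in WT. Those of Kif2c were thus within the WT range as counts, and its CPM was above both WT values by little (56.7 CPM in KO, against 35.9 and 55.4 CPM in WT). Its log2 fold change of 0.35 turned to -0.54 with the mean count over its transcripts.

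Spindle microtubule proteins held the lowest p of the 44 genes. Ckap2l, a spindle protein also called radmis, had 22.7 CPM in KO, against 265 and 234 CPM in WT (6 counts, against 96 and 76). The WT libraries were within 1.14 times of each other, and their mean was 11.01 times the KO value (log2 fold change -3.40, SE 1.28, unadjusted p 0.0077, edgeR adjusted p 0.257). Prc1, which bundles central spindle microtubules, had 110 CPM in KO, against 49.8 and 70.8 CPM in WT, and Tpx2, the activator of Aurka, 106 CPM in KO, against 141 and 80.0 CPM in WT. Hmmr, a spindle assembly factor, had 36 counts in KO, against 2 and 38 in WT, so that 1 WT library alone was low. Nusap1 had 9 counts in KO, against 12 and 28 in WT. Prc1 is overlapped on the other strand by Rccd1 (28 counts in KO, against 61 and 48 in WT) and Nusap1 by Oip5 (10 counts in KO, against 0 and 0 in WT). Ckap2l, Plk1, Knstrn and Cdc25c have an annotated gene on the other strand that had no row among the symbols counted.

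Cytokinesis genes split in direction. Ect2, the exchange factor that activates RhoA at the cleavage furrow, had 140 CPM in KO, against 19.4 and 3.08 CPM in WT (37 counts, against 7 and 1). The KO value was 12.5 times the WT mean (log2 fold change 3.61, SE 1.67, unadjusted p 0.031, adjusted p 0.423). Its binding partners form centralspindlin: Racgap1 had 181 CPM in KO, against 69.1 and 30.8 CPM in WT, and the kinesin Kif23 had 159 CPM in KO, against 130 and 24.6 CPM in WT. All 3 lay above both WT libraries, where 31.1% of all tested genes did, and in all 3 WT replicate 1 was above WT replicate 2. Kif23 is also counted among the kinesins above. Anln, anillin, the scaffold of the contractile ring, had 26.4 CPM in KO, against 119 and 246 CPM in WT, and the WT mean was 6.90 times the KO value (log2 fold change -2.72, SE 1.36, unadjusted p 0.045, adjusted p 0.484).

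The condensin I subunits, apart from Smc4, lay below both WT libraries, where 38.2% of all tested genes did. Ncapd2 had 378 CPM in KO, against 539 and 455 CPM in WT (log2 fold change -0.36, SE 0.66, adjusted p 0.917). Ncapg had 18 counts in KO, against 37 and 48 in WT, and is overlapped on the other strand by Lcorl (0 counts in KO, against 5 and 15 in WT). Ncaph, the kleisin that closes the ring, had 60.4 CPM in KO, against 152 and 67.7 CPM in WT. Smc2, one ATPase of the ring, had 37.8 CPM in KO, against 130 and 108 CPM in WT (log2 fold change -1.60, SE 1.48, adjusted p 0.804), whereas its partner Smc4 had 355 CPM in KO, against 180 and 185 CPM in WT (log2 fold change 1.0015, SE 0.85, adjusted p 0.786). The WT libraries agreed closely for both genes, and KO lay on opposite sides of them.

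**Figure D4:**
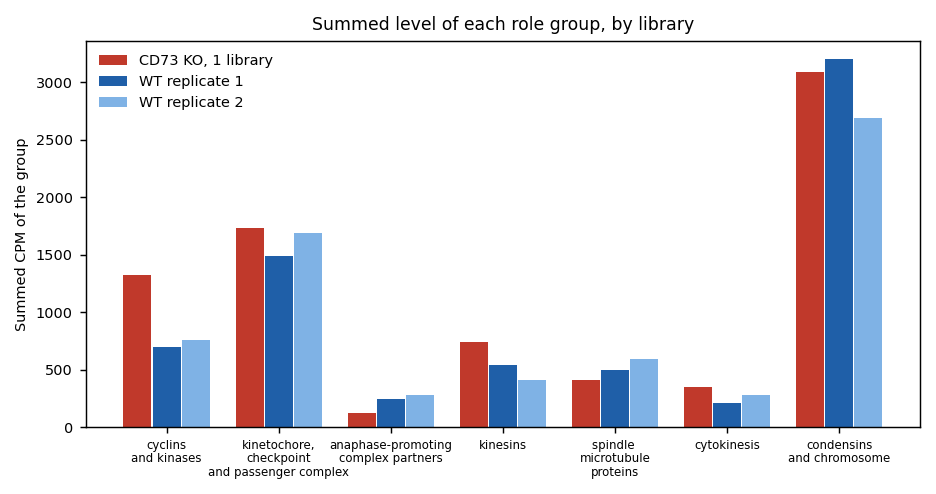
Summed CPM of each role group (vertical axis) in KO, WT replicate 1 and WT replicate 2. The cyclins and kinases stand at 1319 CPM in KO, against 697 and 754 CPM in WT, and the anaphase-promoting complex partners at 121 CPM in KO, against 246 and 277 CPM in WT.

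Shares of counts within a library do not depend on how libraries are scaled, so partners of the same complex were also set against each other; these pairs were chosen after their values were seen. Smc4 held 90.4% of the Smc2 and Smc4 counts in KO (95% Clopper-Pearson interval 83.0 to 95.3%), against 58.0% (48.3 to 67.3%) and 63.2% (52.6 to 72.8%) in WT. Incenp held 94.9% of the Incenp and Birc5 counts in KO (88.5 to 98.3%), against 61.1% (52.2 to 69.5%) and 62.1% (54.4 to 69.5%) in WT. In the Smc4 and Incenp pairs the WT shares agreed within counting error and the KO interval lay above them. Ndc80 held 90.5% of the Ndc80 and Nuf2 counts in KO (77.4 to 97.3%), against 39.5% (29.2 to 50.7%) and 65.1% (55.2 to 74.1%) in WT, where the WT libraries also differed from each other. Aurkb held 88.9% of the Aurkb and Birc5 counts in KO (75.95 to 96.29%), against 45.7% (35.4 to 56.3%) and 29.7% (20.6 to 40.2%) in WT, so that KO lay above both. Racgap1 held 53.3% of the Racgap1 and Kif23 counts in KO (42.5 to 63.9%), against 34.7% (23.9 to 46.9%) and 55.6% (30.8 to 78.5%) in WT, inside the WT range. Aurka held 54.1% of the Aurka and Tpx2 counts in KO (40.9 to 66.9%), against 8.93% (2.96 to 19.6%) and 60.6% (47.8 to 72.4%) in WT, so WT replicate 1 stood apart there and not KO. The intervals hold only for counting error, because PCR copies cannot be told from separate molecules here, and 2 WT libraries give little measure of the spread of such shares.

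**Figure D5:**
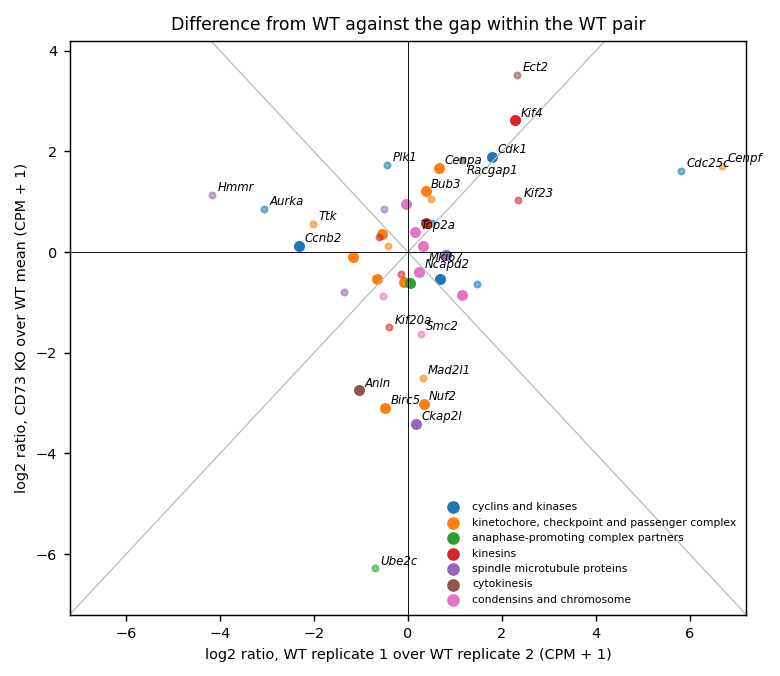
Log2 ratio of KO over the WT mean (vertical axis) against the log2 ratio of WT replicate 1 over WT replicate 2 (horizontal axis), both on CPM + 1, for the 44 genes; large points reached 50 counts in some library. Points in the upper and lower sectors, 26 of 44, differ from WT by more than the WT libraries differ from each other, with Ckap2l, Birc5 and Nuf2 far below the centre and Hmmr, Cdc25c and Cenpf far to the sides.

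The 7 genes with an unadjusted p under 0.05 are all annotated as protein-coding (GENCODE M21, mm10). Those higher in KO are Cdk1 on chromosome 10 (69335146 to 69352938), Kif4 on chromosome X (100625737 to 100727214) and Ect2 on chromosome 3 (27097222 to 27153878). Those lower in KO are Ckap2l and Ube2c on chromosome 2 (129268210 to 129297212 and 164769898 to 164778822), Birc5 on chromosome 11 (117849251 to 117855743) and Anln on chromosome 9 (22332012 to 22389188). The counts cover their annotated RefSeq transcripts.

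Other genes of mitosis, 123 outside the 44, of which 101 could be tested, likewise held 0 genes past the adjusted threshold. Without adjustment 1 was higher and 3 were lower at p under 0.05, where 3.53% and 6.51% of all tested genes were, and the median log2 fold change was -0.19. Their sum was 16770 CPM in KO, against 17531 and 15464 CPM in WT, inside the WT range. The lowest p belonged to Kif15, a motor that supports spindle bipolarity, with 3 counts in KO, against 137 and 49 in WT (log2 fold change -4.47, SE 1.37, unadjusted p 0.0011, edgeR adjusted p 0.143). The WT pair over KO ratio of pooled counts, scaled to library totals, was 23.9 (95% counting interval 8.05 to 117). This interval and those below pool both WT libraries and leave out the spread between libraries. Kif18b, a kinesin of astral microtubules, had 0 counts in KO, against 17 and 50 in WT. With KO set to the floor of 3 counts this is 8.86-fold lower (counting interval of WT over KO from 6.81, adjusted p 0.254). Haus8, an augmin subunit, had 1 count in KO, against 55 and 27 in WT (WT over KO 31.6, counting interval 5.52 to 1264, adjusted p 0.349). On the higher side, Haspin, the histone H3 kinase that recruits the passenger complex, had 30 counts in KO, against 2 and 1 in WT (KO over WT 25.9, counting interval 8.07 to 133, adjusted p 0.368).

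The most abundant of these other genes lay on either side of the WT pair or inside it in KO, and none passed the adjusted threshold. Tubb5, a beta tubulin, had 2146 CPM in KO, against 1687 and 1729 CPM in WT, and Tuba1b, an alpha tubulin, 1893 CPM in KO, against 2439 and 1342 CPM in WT; reads of near-identical tubulins may be split between them. In cohesin, Smc1a had 332 CPM in KO, against 321 and 295 CPM in WT, and Espl1, separase, 227 CPM in KO, against 238 and 178 CPM in WT. Of the anaphase-promoting complex, Anapc5 had 824 CPM in KO, against 650 and 517 CPM in WT. Numa1, which anchors spindle poles, had 533 CPM in KO, against 404 and 317 CPM in WT, and Tacc3 249 CPM in KO, against 260 and 249 CPM in WT. Foxm1, a transcription factor of the CHR genes, had 280 CPM in KO, against 66.4 and 391 CPM in WT, and Mybl2, its partner in G2, 83.1 CPM in KO, against 91.3 and 366 CPM in WT. For these transcription factors WT replicate 2 was the highest library. In condensin II, Ncaph2 had 189 CPM in KO, against 221 and 154 CPM in WT, and Ncapd3 79.3 CPM in KO, against 205 and 142 CPM in WT.

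DNA replication genes, which peak before mitosis, showed no called gene either. Of 40 listed, 35 were tested, 0 passed the adjusted threshold, and 1 had an unadjusted p under 0.05: Gins1, with 0 counts in KO, against 35 and 6 in WT. Their median log2 fold change was -0.19, and their sum was 6267 CPM in KO, against 7369 and 5395 CPM in WT. The replication sum in KO thus lay inside the WT pair, whereas that of the 44 mitotic genes lay above it. The difference between the lists was not tested.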

How the data were processed

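Per the labels' protocols, sorted LKS cells gave RNA through an RNeasy micro kit, and NEB kits were used for the libraries. The authors deposited whole-number counts per RefSeq transcript, with FPKM beside them; the unit of each column was read from its values, since the files have no header. The submitters' processing notes name STAR and mm10 without versions or roles. The counting tool is not given in the sources used here, nor is strand use.

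There were 42574 transcript rows and 24982 symbols per library. The gene count was the highest count over a symbol's rows, because transcripts of a gene repeat shared reads. The deposited FPKM values were used for levels per length and as an alternative. CPM were set on the total of gene counts. The test was that of edgeR 4.0.16 under R 4.3.3 (filterByExpr, TMM, quasi-likelihood F-test, Benjamini-Hochberg over 7984 genes, threshold 0.05). All spread comes from the difference between the 2 WT libraries (1 residual degree of freedom), and KO is taken to vary as much. The fit shares this spread across genes, so the SE and p of a gene are not set by its own WT gap alone. The common dispersion gave a biological coefficient of variation of 0.811. SE was obtained as |log2 fold change| over the square root of F. The 2-fold rule used CPM plus 1. The fit was tested on simulated data. Alternatives were other scalings, filters and gene counts, DESeq2 1.42.0, FPKM, and each WT library left out.

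The 44 genes and all lists were chosen with earlier results of these data known. Named genes were the 44; of the other mitotic genes, those with an unadjusted p under 0.05 and up to 2 of the most abundant per group, some left out for length; and Nt5e. Markers named beyond the most abundant of a list, and the genes in the pairs of partners, were chosen after their values were seen. Sequences are from RefSeq, build GRCm38.p6; 7 of the 44 genes had no entry in the promoter table.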

Additional observations from a re-analysis of the deposited data

How the results depend on the processing

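Under every tested alternative 0 of the 44 genes passed the adjusted threshold, in either direction. These were scaling by library totals, upper quartile or DESeq2 size factors, both other filters, the mean or sum of counts over transcripts, and DESeq2. The stricter filter tested 33 of the 44, and DESeq2 gave no adjusted p for some of the 44. Over all genes the 8 called higher became 3 with upper-quartile scaling, 4 with no filter beyond 1 count, 0 with at least 10 counts in every library or 50 in any (102 at an unadjusted p under 0.05), 1 with the mean over transcripts, 0 with the sum over transcripts (239 at an unadjusted p under 0.05) and 18 with DESeq2, which called 17 lower, against 0. The log2 ratio of the summed CPM, KO over WT, was 0.19 and ranged from 0.17 to 0.21 with either WT library left out. It was 0.24 with DESeq2 size factors, 0.23 with TMM, 0.32 with the sum over transcripts, 0.24 with FPKM of the row with the highest count, and 0.16 with FPKM summed over rows, an alternative chosen after seeing the data, as was leaving out Mki67 (0.21). The genes at least 2-fold below each WT library numbered 7 in place of 4 with the sum over transcripts. Summing raises counts, so more genes can reach the minimum of 50. The share of all genes below by this rule was not set beside the 7, so it cannot be read as a stronger decrease. The log2 fold change of Kif2c, 0.35, reversed to -0.54 with the mean and -0.56 with the sum over transcripts; the cause was not tested. No other gene of the 44 reversed under an alternative with a test. Without WT replicate 1 that of Kif4 was 4.28 in place of 2.66 and that of Ect2 5.37 in place of 3.61, while Cenpf and Cdc25c were then set against a WT library with 0 counts; without WT replicate 2 that of Hmmr was 4.55 in place of 1.201 and that of Aurka 3.17 in place of 0.91. With either WT library left out the sign turned for 8 of the 44: Ccnb1, Ccnb2, Knstrn, Tpx2 and Ttk without WT replicate 1, and Mki67, Ndc80 and Nusap1 without WT replicate 2. With 1 library a group no test can be fitted, so calls have no value there. No paired analysis was possible because KO has 1 library and carries no replicate number. Depth limits all genes below about 50 counts, which were 22 of the 44.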
